A study of Mus musculus with 10 samples.

Results

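Integrin subunits were described across all 10 libraries of a study of macrophages in mouse pancreas and pancreatic tumours. The rows of the deposited expression table whose symbol was Itga4, Itga5, Itga6, Itgal, Itgam, Itgav, Itgb1, Itgb2, Itgb5 or Itgb7 were taken, which gave 10 genes of the 12535 in the table. All cells were sorted as CD45+CD11b+F4/80+. Resident macrophages (n = 4) came from the healthy pancreas of wild-type C57/BL6 mice. Control tumour-associated macrophages (TAM, n = 3) came from C57/BL6 mice with Ahr fl/fl alleles, and the third group (n = 3) from Ahr fl/fl mice carrying Lys M, which the series text calls Lyz2-AhR cKO. Both TAM groups were taken from orthotopic tumours 14 days after implantation of MT4, an organoid line of KPC mice, a genetic model of pancreatic ductal adenocarcinoma (PDAC). Ahr encodes the aryl hydrocarbon receptor, a ligand-activated transcription factor, and the Lyz2 (lysozyme M) promoter drives Cre in many myeloid cells, neutrophils included. Resident and control TAM differed in tissue and in genotype, so the tumour and the floxed alleles cannot be told apart in that comparison. Age and sex were not given in the sources used here.

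Integrins are cell-surface receptors made of 1 alpha and 1 beta chain, which bind matrix proteins or counter-receptors on other cells and link them to the actin cytoskeleton. The beta2 chain is restricted to leukocytes and pairs with Itgam or Itgal, the beta1 and beta7 chains share the alpha4 chain, and beta5 pairs with alphav, a chain also known for binding latent TGF-beta. Macrophages use these receptors to leave the blood, to adhere, to engulf opsonised or dying cells and to build podosomes. Since Itgam encodes CD11b, a protein on which every sample was gated, its mRNA level is given as a description of cells chosen by it.

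The comparison of control TAM with resident macrophages asks what differs between macrophages of the tumour and of the healthy pancreas. That of the cKO-labelled TAM with control TAM asks what differs with the cKO label. Only the cKO-labelled mice carried Lys M, so Lys M itself and any Ahr deletion cannot be told apart in that comparison. All 10 subunits rose from resident macrophages to control TAM, by 1.11-fold (Itgb5) to 8.42-fold (Itga6). In that comparison 39.0% of the 11127 genes tested were called higher, 38.1% lower and 77.1% in either direction. In the cKO-labelled TAM 8 subunits were lower than in control TAM and none was higher, where 19.1% of all genes were called lower, 20.5% higher and 39.6% in either direction. The other two, Itga5 and Itgav, did not pass the test. Without Itgam the counts were 9 of 9 higher and 7 of 9 lower.

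Promoters are shown for 3 subunits that stand for the different patterns: Itgb5, the gene with the smallest rise and a level under the resident one in cKO-labelled TAM, Itgam, the gene behind the sort marker, and Itga5, which did not pass the test between the TAM groups. Each sequence holds the 250 bases before the RefSeq start on the gene's strand (GRCm38.p6), with lower case letters and matches in capitals. Capitals mark GCGTG, the core of the xenobiotic response element bound by the aryl hydrocarbon receptor, or GAGGAA, the core of a PU box, each searched on both strands (CACGC and TTCCTC). The windows are chr16:33829415-33829664 (+ strand) for Itgb5, chr7:128062390-128062639 (+ strand) for Itgam and chr15:103366792-103367041 (- strand) for Itga5.
Itgb5: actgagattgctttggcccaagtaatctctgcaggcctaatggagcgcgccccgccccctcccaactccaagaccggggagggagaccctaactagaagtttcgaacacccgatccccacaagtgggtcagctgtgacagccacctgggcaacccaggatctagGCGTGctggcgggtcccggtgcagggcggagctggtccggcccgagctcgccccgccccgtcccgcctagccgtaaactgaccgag
Itgam: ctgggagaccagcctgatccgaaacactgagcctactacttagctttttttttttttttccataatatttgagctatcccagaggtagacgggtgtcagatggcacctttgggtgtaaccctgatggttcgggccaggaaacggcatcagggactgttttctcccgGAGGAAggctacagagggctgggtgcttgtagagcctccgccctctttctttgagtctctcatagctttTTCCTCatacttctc
Itga5: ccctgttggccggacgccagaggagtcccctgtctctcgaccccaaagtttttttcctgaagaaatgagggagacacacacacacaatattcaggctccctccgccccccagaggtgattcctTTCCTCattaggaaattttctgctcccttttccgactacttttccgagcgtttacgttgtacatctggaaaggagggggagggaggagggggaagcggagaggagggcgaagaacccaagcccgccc
RefSeq windows were matched for 7 of the 10 subunits, and Itga6, Itgal and Itgb2 had no entry. GCGTG was found in 1 of the 7 (Itgb5), and in 28.2% of all 32851 windows of this length. GAGGAA was found in 4 of the 7 (Itga5, Itgam, Itgav and Itgb1), and in 23.3% of all windows. A match is a run of letters and was not tested for binding.

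Expression is given in FPKM, fragments per kilobase of gene scaled to library size, and differences are on the scale of log2(FPKM + 1), which understates the change of low genes. Recovered depth was 10312744 to 26454690 reads per library, and the subunits had from 152 reads (Itgav) to 48159 reads (Itgb2) in a library. The mRNA of the targeted gene was higher, not lower, under the cKO label. Ahr was 7.18 ± 0.309 FPKM (SD, n = 3) in control TAM and 10.4 ± 0.785 in the libraries labelled cKO, a difference of 0.47 (adjusted p = 0.000108, limma), so that group is called cKO-labelled TAM throughout. A gene-level value does not show whether an exon was deleted, and the deletion was not tested. Lyz2 fell between the TAM groups from 19904 to 11460 FPKM (log2 difference -0.80, adjusted p = 9.39e-13, limma), and was 28140 FPKM in resident macrophages. Each p measures only the spread between these libraries, since the labels tie none of them to a mouse, though the series text counts as many mice as libraries.

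Markers of other cells moved with the groups, each list given as its summed FPKM per library. Pancreatic acinar markers (14 of 14 in the table, led by Cela2a and Prss2) summed to 28192 to 29997 in resident libraries, where they took 5.33% to 5.51% of the total, 95.8 to 104 in control TAM, with Amy2a5 at 0, and 360 to 375 under the cKO label. Neutrophil markers (11 of 13, led by Retnlg and Mmp9), which come from cells that also carry CD11b, summed to 360 to 369, 1292 to 1318 and 1630 to 1792, in that order of groups. Mmp9 made up most of the resident sum, with 329 FPKM there, 41.5 in control TAM and 123 under the cKO label, and 9 of the 11 markers had a resident mean under 1. Retnlg made up most of both TAM sums, with 0.332 FPKM in the resident group, 1166 in control TAM and 1420 under the cKO label. Of 10 neutrophil markers tested, 8 rose and 1 (Mmp9) fell in control TAM, and 7 rose and 1 fell between the TAM groups. Monocyte markers (10 of 10, led by Plac8 and Chil3) summed to 210 to 221, 1293 to 1312 and 1122 to 1164. All 10 genes of the monocyte list rose in control TAM, among them Cd177, which encodes a surface antigen of neutrophils. Between the TAM groups only Cd177 rose (5.08 to 11.8 FPKM), while 4 genes of the list fell and 5 were not called. Chil3, which fell there from 399 to 266 FPKM, carried most of the fall in the sum, and Plac8 (364 and 374 FPKM) was not called. The sums of these lists therefore went both ways between the TAM groups.
The B and plasma cell list (7 of 10, led by Ighm and Igkc) summed to 1364 to 1387, 87.5 to 96.4, with Mzb1 at 0, and 244 to 248. The dendritic cell list (6 of 10, led by Cd209a and Batf3) summed to 185 to 197, 34.2 to 40.8 and 79.2 to 84.7, and the T and NK cell list (13 of 15, led by Cd2 and Nkg7) to 31.5 to 33.9, 21.3 to 25.2 and 28.3 to 30.4. Cd2 (21.7 to 1.76 FPKM) and Cd4 (3.22 to 0.385 FPKM) fell from resident macrophages to control TAM, against the other 10 of 12 T and NK genes tested, which rose. The eosinophil list (5 of 8, led by Ear2 and Prg2) summed to 45.7 to 59.5, with Prg2 at 0, 88.7 to 91.7 and 132 to 133. Ear2 made up nearly all of the resident sum, with 50.7 FPKM there, 14.9 in control TAM and 28.5 under the cKO label. The other 4 genes had a resident mean under 1. Of the 5 tested, 4 rose and 1 (Ear2) fell in control TAM, and 4 rose and 1 was not called between the TAM groups. Apart from these blood and lymphoid lists, genes of large peritoneal macrophages (15 of 15, led by Saa3 and Alox15) summed to 1344 to 1354, 5076 to 5138 and 4848 to 4937. Of these 15, 12 rose, 1 was not called and 2 fell in control TAM, Timd4 (213 to 91.2 FPKM) and Cxcl13 (376 to 70.5 FPKM). Saa3 (210 to 2186 FPKM) and Alox15 (137 to 1389 FPKM) carried most of the rise in the sum. Between the TAM groups 1 rose, 7 fell and 7 were not called.
The platelet list (3 of 8, led by Pf4 and Ppbp) summed to 1276 to 1365, 205 to 225 and 341 to 399. Nearly all of that was Pf4, with 1320, 216 and 371 FPKM, beside 2.94, 0.624 and 2.18 FPKM for Ppbp. The platelet sum therefore follows 1 gene. The fibroblast list (10 of 11, led by Col3a1 and Dcn) summed to 38.6 to 42.8, 169 to 174 and 132 to 136. Of 8 fibroblast genes tested 3 rose, 2 fell and 3 were not called between the TAM groups, and those that fell were Dcn (52.9 to 24.4 FPKM) and Col1a2 (28.9 to 16.0 FPKM). Epithelial and tumour cell markers (11 of 12, led by Krt18 and Krt19) summed to 9.73 to 11.7, 307 to 317 and 305 to 316, and endothelial markers (5 of 8, led by Plvap and Pecam1) to 3.48 to 3.86, 7.56 to 8.73 and 27.5 to 29.2. The markers of the sorted cells themselves (6 of 6, led by Cd68 and Csf1r) summed to 2996 to 3026, 2371 to 2393 and 2183 to 2228, with 3 of the 6 higher and 3 lower in control TAM than in the resident group. Among these, Adgre1, which encodes F4/80, was 706, 590 and 497 FPKM and Ptprc, which encodes CD45, 69.0, 103 and 84.2 FPKM. The part of these cells in the integrin results was not tested, and in bulk RNA fewer cells of a type and less RNA per cell cannot be told apart.

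**Figure D1:**
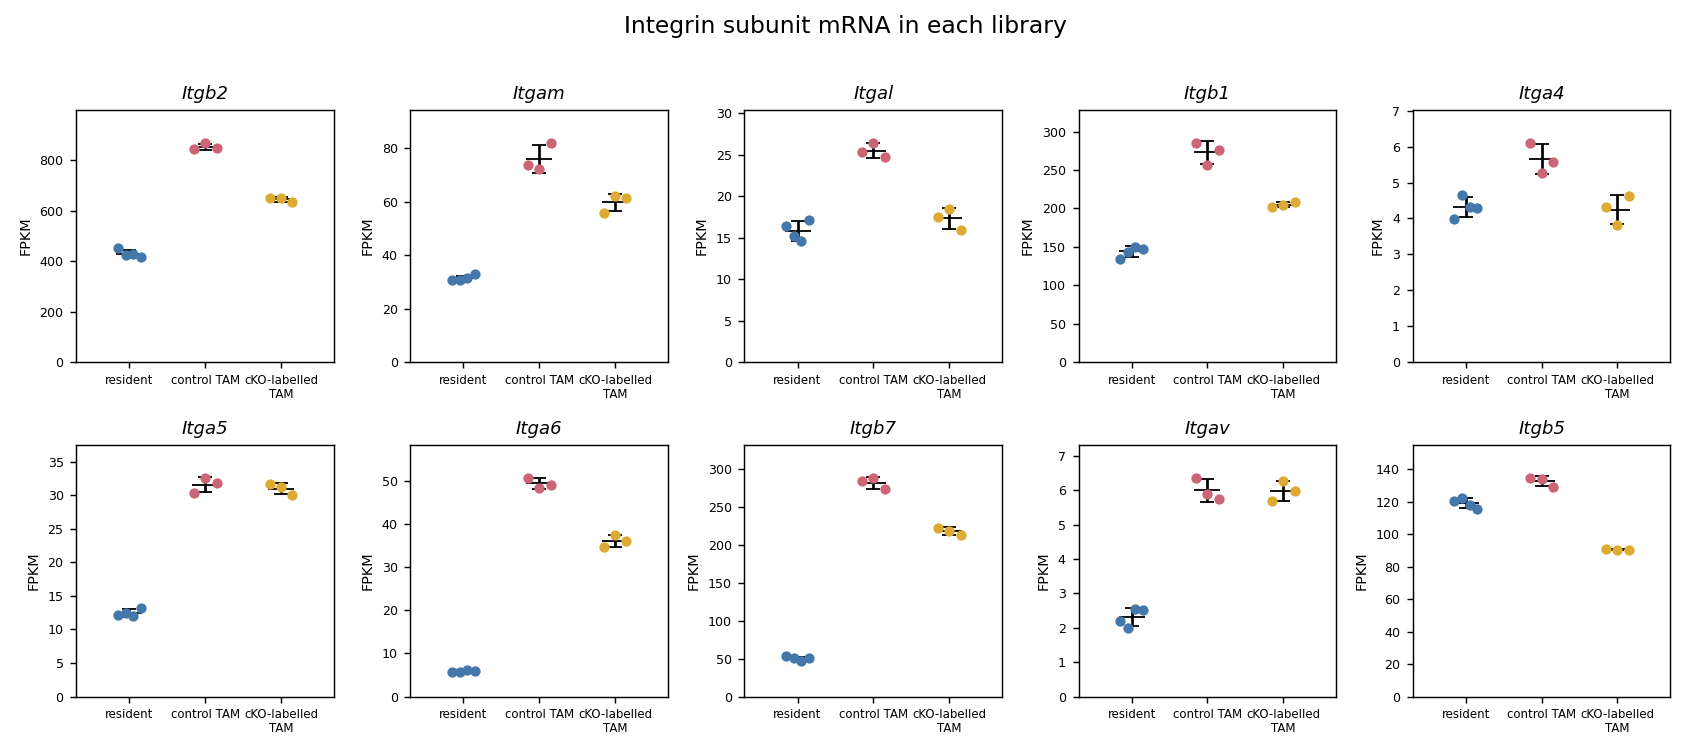
FPKM (y axis, from 0) of the 10 integrin subunits in resident macrophages (4 libraries), control TAM (3) and cKO-labelled TAM (3), with each library as a point and the mean ± SD as a black bar. Every subunit was higher in each control TAM library than in each resident library, and the cKO-labelled libraries lay under the control TAM ones for all but Itga5 and Itgav.

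Itgb2, the common beta chain of the leukocyte integrins (ENSMUSG00000000290, chromosome 10, 77530252 to 77565708), had the highest level per length of the 10 genes in every group. Its 4 resident libraries had 451, 426, 427 and 416 FPKM, the control TAM 844, 868 and 847, and the cKO-labelled TAM 652, 649 and 633. The 3 groups did not overlap, with the cKO-labelled TAM between the others. Itgb2 rose 1.98-fold from 429.9 ± 15.1 FPKM (SD, n = 4) to 853 ± 13.5 (log2 difference 0.99 ± 0.03 SE, adjusted p = 3.63e-14, limma). It fell by 24.4% to 645 ± 10.3 FPKM in the cKO-labelled TAM (log2 difference -0.40 ± 0.03 SE, adjusted p = 1.16e-07, limma).

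Itgam encodes the alphaM chain, which with beta2 forms complement receptor 3 for iC3b (ENSMUSG00000030786, chromosome 7, 128062640 to 128118491). It was at 30.5, 30.8, 31.4 and 32.8 FPKM in resident libraries, 73.7, 72.1 and 81.9 in control TAM, with 55.8, 62.0 and 61.1 under the cKO label, so these groups did not overlap either. The difference was 1.25 ± 0.05 SE (2.42-fold, adjusted p = 1.4e-12, limma) from resident to control TAM and -0.34 ± 0.05 SE (adjusted p = 0.000128, limma) between the TAM groups. Exons of Gm49368, a same-strand gene not analysed here, overlap those of Itgam, so their reads could have been split.

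Itgal encodes the alphaL chain of LFA-1, the receptor for ICAM-1 (ENSMUSG00000030830, chromosome 7, 127296260 to 127335138). The resident libraries had 16.5, 15.2, 14.6 and 17.2 FPKM, the control TAM 25.4, 26.4 and 24.7, and the cKO-labelled TAM 17.5, 18.5 and 16.0. Control TAM stood apart, whereas the other two groups overlapped. Itgal rose 1.61-fold into control TAM (log2 difference 0.65 ± 0.06 SE, adjusted p = 8.33e-08, limma) and fell by 32.1% from there (log2 difference -0.53 ± 0.07 SE, adjusted p = 1.51e-05, limma). Between cKO-labelled TAM and resident macrophages the difference was 0.12 (95% interval -0.01 to 0.25, adjusted p = 0.0871, limma). That last call depended on the setting: Itgal passed at 0.25 (adjusted p = 0.00137, limma) with libraries rescaled to a common total, at 0.16 without resident replicate 4 (adjusted p = 0.0327) and at 0.18 without cKO-labelled replicate 3 (adjusted p = 0.0278).

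Itgb1, the beta chain shared by most matrix receptors (ENSMUSG00000025809, chromosome 8, 128685654 to 128733200), ranked the second or the third among the 10 genes. It was at 135, 143, 150.1 and 148 FPKM in resident libraries, 285, 257 and 277 in control TAM, with 202, 205 and 208 under the cKO label. The groups did not overlap, and control TAM replicate 2 was the lowest of its group. Itgb1 rose 1.89-fold (log2 difference 0.92 ± 0.04 SE, adjusted p = 6.86e-12, limma) and fell by 24.8% in the cKO-labelled TAM (log2 difference -0.41 ± 0.04 SE, adjusted p = 3.68e-06, limma). Its level there stayed above the resident one by 0.51 (adjusted p = 1.37e-08, limma).

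Itga6, a laminin-binding alpha chain (ENSMUSG00000027111, chromosome 2, 71745616 to 71858416), had the largest difference of the 10 genes between control TAM and resident macrophages. Its values were 5.66, 5.67, 6.27 and 5.86 FPKM in resident libraries, 50.8, 48.3 and 49.1 in control TAM, with 34.8, 37.5 and 36.2 under the cKO label. All 3 groups were apart, and the cKO-labelled TAM lay much nearer to control TAM than to resident macrophages. Itga6 rose 8.42-fold from 5.87 ± 0.286 (SD, n = 4) to 49.4 ± 1.26 FPKM, and the cKO-labelled TAM had 36.1 ± 1.36. The differences were 2.88 ± 0.05 SE (adjusted p = 1.86e-17, limma) and -0.44 ± 0.05 SE (adjusted p = 8.21e-06, limma).

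Itga5, the alpha chain of the classical fibronectin receptor (ENSMUSG00000000555, chromosome 15, 103344286 to 103366763), rose in control TAM with no further difference called. Resident libraries had 12.1, 12.5, 12.0 and 13.2 FPKM, control TAM 30.3, 32.6 and 31.8, and cKO-labelled TAM 31.6, 31.2 and 30.1. Both TAM groups overlapped each other and lay above every resident library. The rise was 2.53-fold (log2 difference 1.27 ± 0.05 SE, adjusted p = 4.95e-13, limma). Between the TAM groups the difference was -0.03, with a 95% interval of -0.13 to 0.08 (adjusted p = 0.701, limma).

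Itga4 encodes the chain that binds VCAM-1 and fibronectin (with beta1) or MAdCAM-1 (with beta7), and is annotated on chromosome 2 at 79255426 to 79333123 (ENSMUSG00000027009). It was low throughout, with 3.99, 4.65, 4.32 and 4.30 FPKM in resident libraries, 6.10, 5.28 and 5.58 in control TAM, with 4.31, 3.81 and 4.62 under the cKO label. Control TAM did not overlap the other groups, which overlapped each other. Itga4 rose 1.31-fold (log2 difference 0.32 ± 0.08 SE, adjusted p = 0.00106, limma) and fell by 24.9% (log2 difference -0.34 ± 0.08 SE, adjusted p = 0.00334, limma), to a level -0.02 from that of resident macrophages (95% interval -0.18 to 0.14, adjusted p = 0.817, limma). The rise was 0.50 after rescaling to a common total and 0.53 with limma-voom on recovered reads. Exons of Cerkl overlap Itga4 on the opposite strand. Cerkl was at 0.972, 0.862 and 0.935 FPKM in the 3 groups, and reads of opposite strands cannot be told apart.

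Itgb7, the beta chain of the gut-homing receptor alpha4beta7 (ENSMUSG00000001281, chromosome 15, 102215995 to 102231944), had the second largest difference between control TAM and resident macrophages. It was at 53.0, 51.5, 47.4 and 50.4 FPKM in resident libraries, 285, 289 and 274 in control TAM, with 223, 219 and 214 under the cKO label. The groups were far apart relative to their spread. Itgb7 rose 5.58-fold from 50.6 ± 2.37 (SD, n = 4) to 282 ± 8.08 FPKM (log2 difference 2.46 ± 0.04 SE, adjusted p = 7.36e-18, limma). It fell by 22.6% to 219 ± 4.85 FPKM in the cKO-labelled TAM (log2 difference -0.37 ± 0.04 SE, adjusted p = 4.8e-06, limma).

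Itgav encodes the alphav chain, which binds RGD-containing ligands such as vitronectin and osteopontin (ENSMUSG00000027087, chromosome 2, 83724397 to 83806916). It had the lowest or second lowest level of the 10 genes, with 2.20, 1.99, 2.54 and 2.51 FPKM in resident libraries. Control TAM had 6.37, 5.89 and 5.73 and cKO-labelled TAM 5.67, 6.26 and 5.96 FPKM, so both TAM groups lay above the resident libraries and overlapped. Itgav rose 2.60-fold (log2 difference 1.08 ± 0.08 SE, adjusted p = 2.05e-09, limma), and between the TAM groups the difference was -0.01 (95% interval -0.18 to 0.17, adjusted p = 0.96, limma). An antisense transcript, Gm13684, not analysed here, overlaps its exons.

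Itgb5, the beta chain that pairs with alphav in the vitronectin receptor (ENSMUSG00000022817, chromosome 16, 33829665 to 33949338), had the smallest rise and the lowest cKO-labelled level relative to resident macrophages. Resident libraries had 121, 122, 118 and 115 FPKM, control TAM 135, 134 and 129, and cKO-labelled TAM 90.9, 90.4 and 90.3. Here the cKO-labelled TAM lay under both other groups, with none overlapping. The rise was 1.11-fold (log2 difference 0.16 ± 0.03 SE, adjusted p = 0.000345, limma), and was 0.37 after rescaling to a common total and 0.29 with limma-voom on recovered reads. Itgb5 fell by 31.7% between the TAM groups, from 133 ± 3.26 to 90.5 ± 0.363 FPKM (log2 difference -0.55 ± 0.03 SE, adjusted p = 6.98e-09, limma). It stood at -0.39 against resident macrophages (adjusted p = 1.38e-08, limma), and at -0.26 after rescaling.

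**Figure D2:**
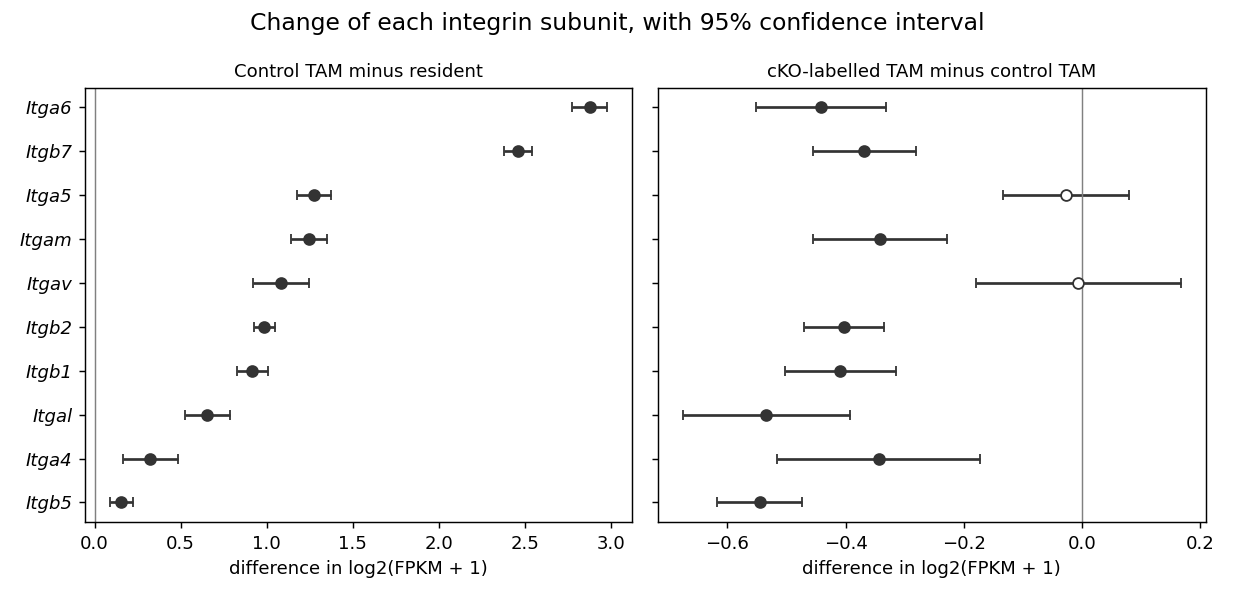
Difference in log2(FPKM + 1) of each integrin subunit between control TAM and resident macrophages (left) and between cKO-labelled and control TAM (right), as points with 95% confidence intervals, filled where the adjusted p from limma passed 0.05. The left differences run from 0.16 (Itgb5) to 2.88 (Itga6), and the open points on the right are Itga5 and Itgav.

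Across the 10 genes the median difference between control TAM and resident macrophages was 1.03, and over all genes tested it was 0.00. Groups did not overlap for 10 of 10 subunits, where that held for 73.9% of all genes. Between the TAM groups the median was -0.39 for the subunits and 0.01 for all genes. There, groups did not overlap for 8 subunits, against 51.4% of all genes. The cKO-labelled TAM compared with resident macrophages, which shares libraries with both other comparisons, had 7 subunits higher (40.2% of all genes were), 1 lower (Itgb5, against 37.2%) and 2 not called (Itga4 and Itgal), where 77.4% of all genes were called in either direction. By group means alone, levels ran from control TAM over cKO-labelled TAM to resident macrophages for 8 subunits, and placed the cKO-labelled TAM last for Itga4 and Itgb5. Not every step of that order was apart. Itga5 and Itgav overlapped between the TAM groups, and Itgal and Itga4 overlapped between cKO-labelled TAM and resident macrophages. Rescaling moved the median of all genes between control TAM and resident macrophages to 0.18, with that of the subunits at 1.22. The share of called genes that were higher went from 50.6% to 66.2% there and from 51.8% to 32.8% between the TAM groups, with 10 and 8 subunits still called in the same directions.

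**Figure D3:**
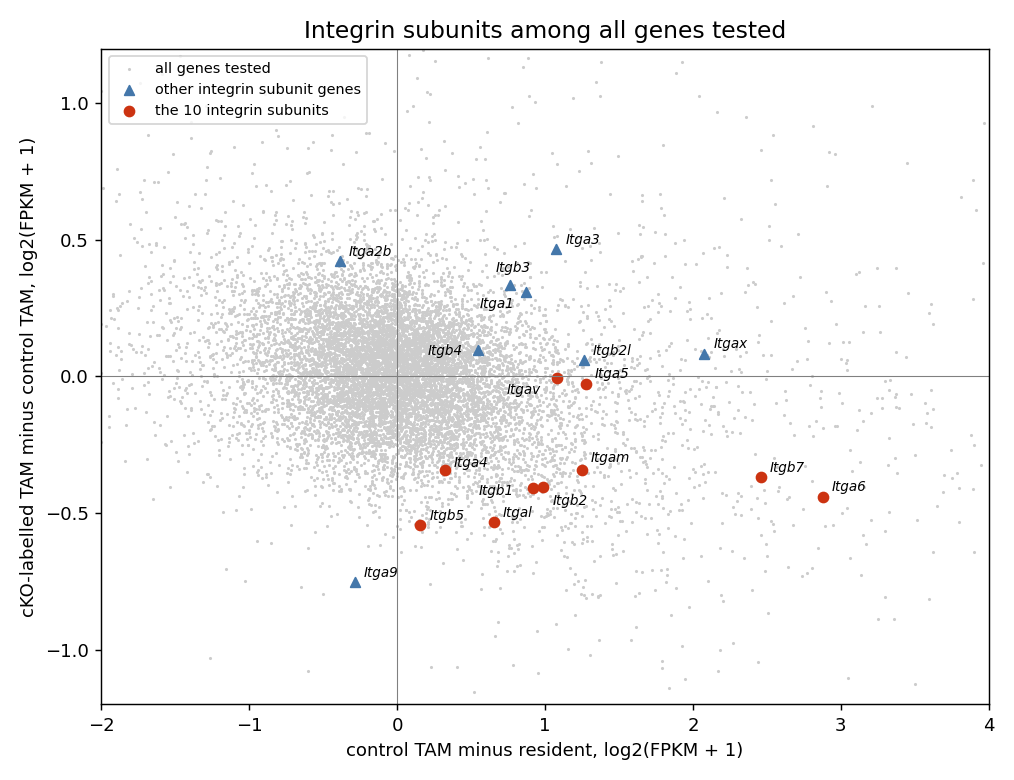
Difference in log2(FPKM + 1) between control TAM and resident macrophages (x axis) and between cKO-labelled and control TAM (y axis) for all genes tested (grey), the 10 integrin subunits and the other integrin subunit genes (triangles). The axes share the control TAM libraries, and 316 genes lie outside the range drawn. The 10 subunits lie at 0.16 to 2.88 on the x axis and at -0.55 to -0.01 on the y axis.

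The makeup of the pool of subunit mRNA differed between resident macrophages and either TAM group. Summed over the 10 genes it was 816 ± 10.7 FPKM (SD, n = 4) in resident macrophages, 1735 ± 8.85 in control TAM and 1313 ± 12.6 under the cKO label. Of the 4 beta chains, Itgb2 took 57.8%, 55.4% and 55.6% of the sum in these groups. Itgb1 took 19.4%, 17.7% and 17.7%. The shares of these chains stayed close, and the other two traded places: Itgb5 took 16.0%, 8.61% and 7.81%, and Itgb7 6.81%, 18.3% and 18.9%.
Among the 6 alpha chains Itgam took the most, at 43.5%, 39.1% and 38.6% of their sum. Itga6 took 8.14%, 25.5% and 23.4%, and Itgal 21.9%, 13.1% and 11.2%. Itga5 took 17.3%, 16.3% and 20.1%, Itga4 5.99%, 2.92% and 2.76%, and Itgav 3.20%, 3.09% and 3.87%. The laminin-binding chain thus ranked the fourth of 6 in resident macrophages and the second in both TAM groups.

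**Figure D4:**
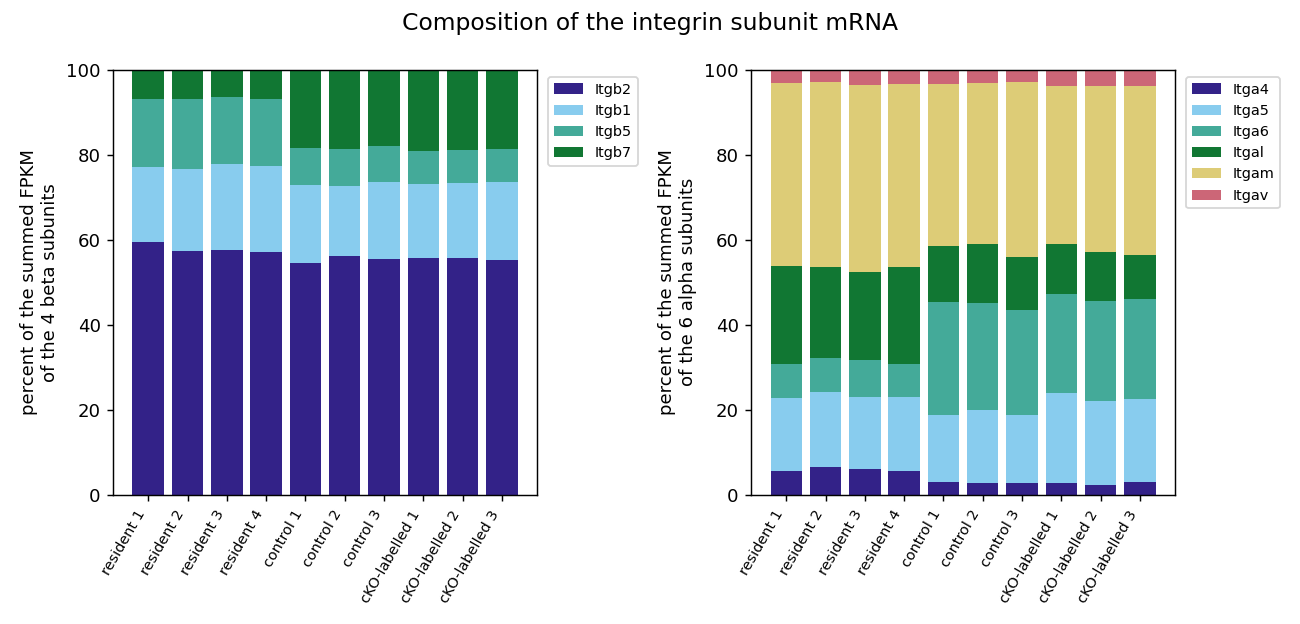
Percent of the summed FPKM of the 4 beta subunits (left) and the 6 alpha subunits (right) taken by each gene, as stacked bars with 1 bar per library. Itgb7 rises from 6.81% of the beta sum in resident macrophages to 18.3% in control TAM, and Itga6 from 8.14% to 25.5% of the alpha sum.

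Ratios between subunits do not depend on how a library was scaled, and 10 were compared by a two-sided exact permutation test. The smallest p this design allows is 0.0571 for 3 against 4 libraries and 0.1 for 3 against 3, so no ratio could pass 0.05. Of the 10, 9 did not overlap between control TAM and resident macrophages (p = 0.0571, exact, adjusted to 0.0635). The share for ratios of other genes was not computed. For single genes, an unlike measure, groups did not overlap for 73.9% of all genes tested. Several ratios share a subunit, so they are not separate results. The ratio of Itga6 to Itga5 went from 0.472 ± 0.0342 (SD, n = 4) to 1.57 ± 0.0989 (n = 3), and that of Itgb7 to Itgb1 from 0.353 ± 0.0329 to 1.04 ± 0.0776. The ratio of Itga4 to its partner Itgb7 went from 0.0855 ± 0.00726 to 0.0200 ± 0.00163. Itgal to Itgam, the alpha chains that share beta2, went from 0.505 ± 0.0333 to 0.337 ± 0.0330. Itgb2 to Itgb1 overlapped, at 2.99 ± 0.248 and 3.13 ± 0.222 (exact p = 0.4).
Between the TAM groups 4 of the 10 ratios did not overlap (p = 0.1, exact, adjusted to 0.25). Single genes did not overlap there for 51.4% of all genes tested, so that count does not set these ratios apart. Itgav to Itgb5 went from 0.0452 ± 0.00177 to 0.0659 ± 0.00346 (SD, n = 3 each), and Itga5 to Itga4 from 5.61 ± 0.610 to 7.34 ± 0.848. Itga6 to Itga5 went from 1.57 to 1.17 and Itgal to Itgb2 from 0.0299 to 0.0268. In contrast, Itgb2 to Itgb1 was 3.13 ± 0.222 and 3.15 ± 0.0937 (exact p = 1), and Itgb7 to Itgb1 was 1.04 and 1.07, with libraries of both groups overlapping.

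The table held 12 other integrin subunit genes, of which 8 passed the filter on low values and Itga2, Itga7, Itgae and Itgb6 did not. Of those 8, 6 rose and 2 fell (Itga9 and Itga2b) from resident macrophages to control TAM. In that comparison 39.0% of all genes tested were called higher and 38.1% lower. The 6 that rose (Itgax, Itga3, Itga1, Itgb3, Itgb4 and Itgb2l) had resident means under 1 FPKM. They passed the filter almost only through TAM libraries, so their rise was close to fixed in advance and lends no support. Comparing the TAM groups, 3 were higher (Itga3, Itga1 and Itgb3), 1 was lower (Itga9) and 4 were not called. Of all genes 20.5% were called higher and 19.1% lower there. Itga1 and Itgb3 passed the filter mainly through the cKO-labelled libraries, so their rise lends no support either. Itgax, which encodes CD11c and pairs with beta2, was at 0.888 ± 0.198 FPKM (SD, n = 4), 6.93 ± 0.582 (n = 3) and 7.40 ± 0.360 (n = 3) in the 3 groups. It rose by 2.08 into control TAM, and the difference between the TAM groups was 0.08 (adjusted p = 0.512, limma).
Itga9, a chain that pairs with beta1, had 11.70, 11.25, 11.42 and 11.04 FPKM in resident libraries, 9.42, 9.24 and 8.76 in control TAM, with 5.19, 5.18 and 4.69 under the cKO label. It thus ran downward over the 3 groups. The differences were -0.29 (adjusted p = 0.000302, limma), which was -0.09 and not past the threshold after rescaling (adjusted p = 0.163), and -0.75 (adjusted p = 1.64e-07, limma). Itga3, a laminin-binding chain, was at 0.123, 1.37 and 2.27 FPKM and rose by 0.47 between the TAM groups (adjusted p = 0.000243, limma).
Itgb3, the beta chain of the other main alphav receptor, was at 0.136, 0.924 and 1.43 FPKM (difference between the TAM groups 0.34, adjusted p = 0.00811, limma). Itga1, a collagen-binding chain, was at 0.0631, 0.948 and 1.42 FPKM (0.31, adjusted p = 0.0191, limma). Both calls between the TAM groups were lost at a pseudocount of 0.1, with adjusted p = 0.0673 for Itgb3 and 0.186 for Itga1, and that of Itga1 was lost without control TAM replicate 2 or 3 or cKO-labelled replicate 2 or 3 (adjusted p = 0.0557, 0.0728, 0.077 and 0.0816). Itga2b, the platelet alpha chain, was at 2.17, 1.44 and 2.24 FPKM. Control TAM overlapped resident macrophages, and every cKO-labelled library lay above the control TAM ones, a difference of 0.42 that did not pass the test (adjusted p = 0.0621, limma). Its call between control TAM and resident macrophages (-0.39, adjusted p = 0.0375, limma) was lost without resident replicate 1, 3 or 4 (adjusted p = 0.0804, 0.0918 and 0.0864) or control TAM replicate 2 (adjusted p = 0.271). It was also lost after rescaling (adjusted p = 0.155), with no variance trend (0.0615), with array weights (0.0666) and with limma-voom (0.0726). The difference between the TAM groups passed with limma-voom (adjusted p = 0.0412), with the replicate number as a block (adjusted p = 0.00761, limma), and without resident replicate 2 (adjusted p = 0.0348) or control TAM replicate 3 (adjusted p = 0.0385).

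**Figure D5:**
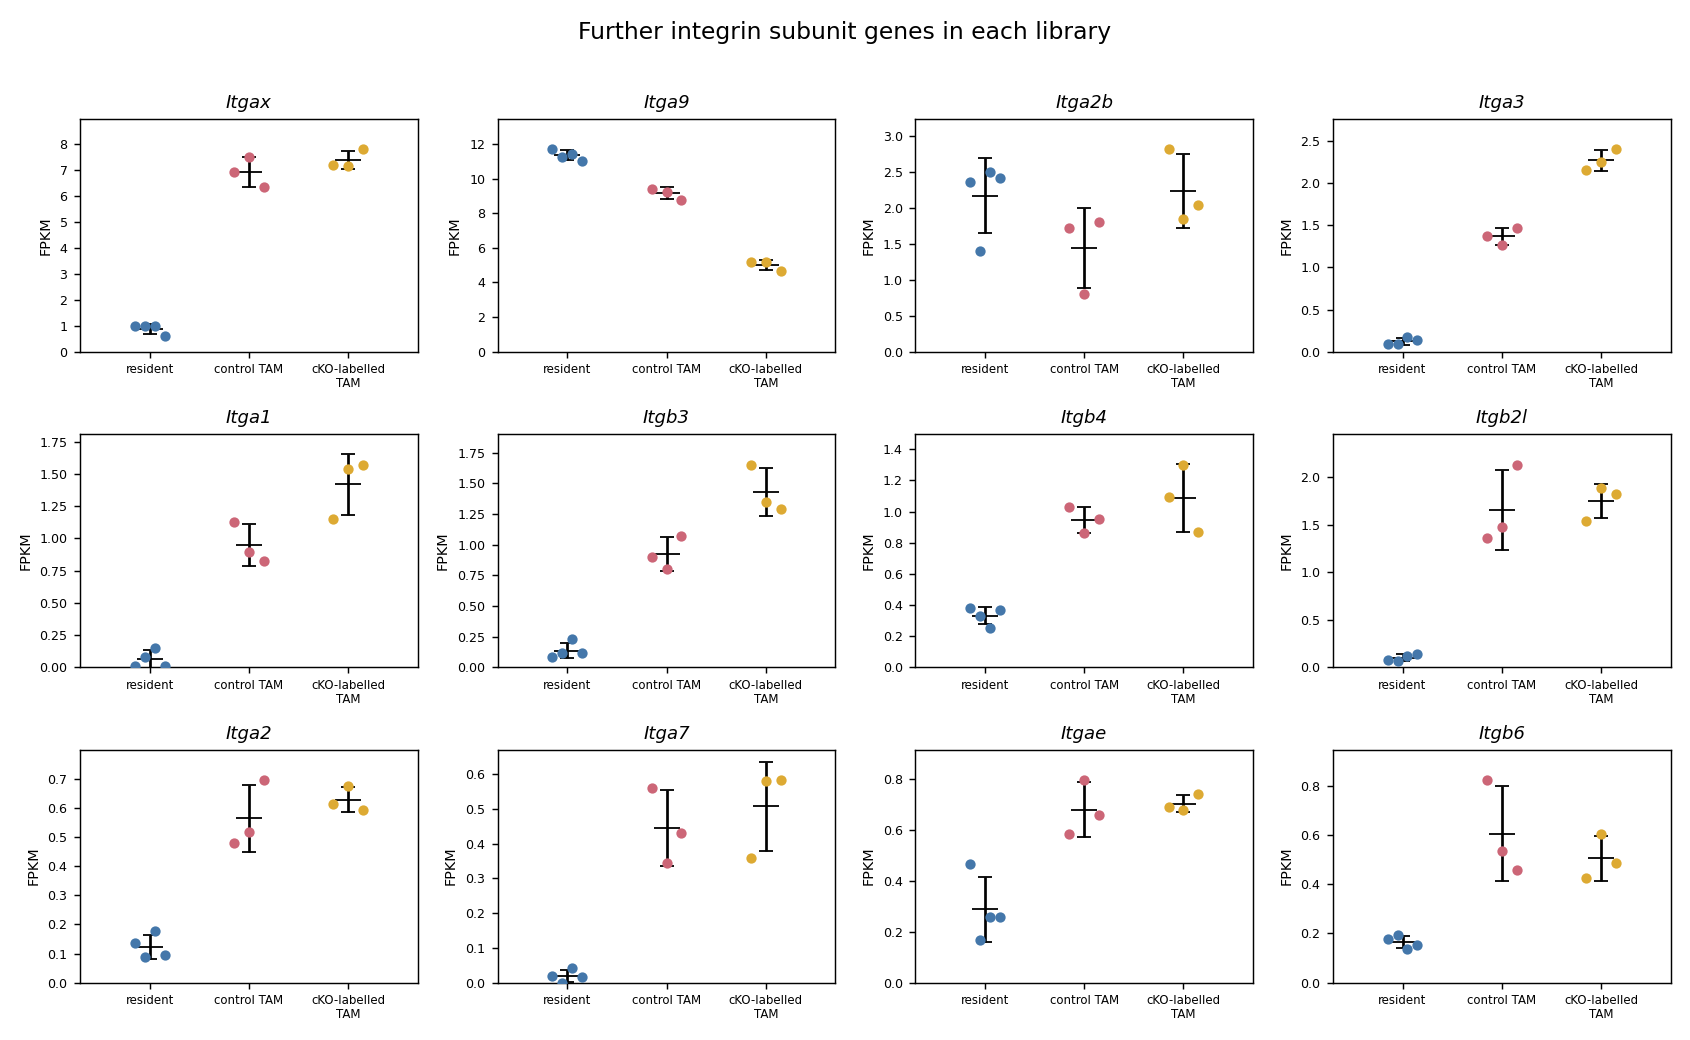
FPKM (y axis, from 0) of the 12 other integrin subunit genes, with each library as a point and the mean ± SD as a black bar, in resident macrophages (4 libraries), control TAM (3) and cKO-labelled TAM (3). Itga9 falls over the 3 groups from 11.4 to 9.14 and 5.02 FPKM, and the other genes stay under 8 FPKM.

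Of 29 ligands and counter-receptors of integrins listed and 17 tested, 13 rose, 3 fell and 1 was not called in control TAM, where 39.0% of all genes were called higher and 38.1% lower. Their median was 0.91, and that of all genes 0.00. Spp1, which encodes the alphav ligand osteopontin, went from 5.21 ± 0.198 (SD, n = 4) to 1056 ± 9.31 FPKM (log2 difference 7.41, adjusted p = 1.76e-24, limma). Thbs1, which encodes thrombospondin-1, went from 25.0 to 226 FPKM and rose to 295 in the cKO-labelled TAM. Vcam1, the counter-receptor of alpha4beta1, went from 15.5 to 12.8 FPKM (-0.25, adjusted p = 0.00185, limma), a call lost after rescaling (-0.05, adjusted p = 0.481).
In the cKO-labelled TAM 6 ligand genes rose, 5 fell and 6 were not called relative to control TAM, with a median of -0.02, where 20.5% of all genes were called higher and 19.1% lower. C3, the source of the iC3b that Itgam products bind, fell from 140.1 to 99.2 FPKM (-0.49, adjusted p = 4.17e-07, limma), and Icam2, a ligand of LFA-1, from 259.8 to 218 FPKM. Tgfb1, whose latent product alphav integrins bind, rose from 56.6 to 69.8 FPKM (0.30, adjusted p = 3.12e-05, limma).

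The list for control of integrins from inside the cell held 27 symbols, some of them aliases, and mixed activators with inhibitors such as Dok1. Of these 22 were tested: 10 rose, 8 fell and 4 were not called in control TAM (median 0.16). Between the TAM groups 5 rose, 2 fell and 15 were not called (median -0.02). In control TAM these counts lie near the shares over all genes (39.0% higher and 38.1% lower), and between the TAM groups 20.5% of all genes were called higher and 19.1% lower. Fermt3, which encodes the kindlin of blood cells that binds beta tails, had 288 ± 11.2 (SD, n = 4), 371 ± 9.55 and 323 ± 11.6 FPKM in the 3 groups, with both differences called (0.36, adjusted p = 1.12e-07, and -0.20, adjusted p = 0.000682, limma). Rassf5, which encodes the Rap1 effector RAPL, was the other gene that fell between the TAM groups, from 50.7 to 44.1 FPKM. Cyth1, which encodes cytohesin-1, a beta2-tail binding exchange factor, fell in control TAM from 121 to 42.9 FPKM, and Sipa1, a GTPase-activating protein for Rap1, from 75.5 to 41.2 FPKM. Skap2, an adaptor in integrin activation, rose from 39.9 to 52.3 FPKM. Compared with control TAM, the cKO-labelled TAM had higher Fyb, an adaptor that binds the SKAP proteins (55.8 to 64.7 FPKM), and higher Dok1, which competes for beta tails (22.6 to 28.5 FPKM).

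Of 34 adaptors and kinases downstream of bound integrins, 32 were tested: 14 rose, 13 fell and 5 were not called in control TAM (median 0.07), and 8 rose, 11 fell and 13 were not called between the TAM groups (median -0.04). Beside the same shares over all genes, the counts in control TAM were again near the background. Fgr, a Src-family kinase of myeloid cells, rose from 25.3 to 116 FPKM (2.15, adjusted p = 2.74e-17, limma), and Parvg, the parvin of blood cells, from 1.80 to 22.4 FPKM. Syk, the kinase that acts below beta2 integrins, fell from 70.1 to 36.6 FPKM (-0.92, adjusted p = 7.78e-13, limma), and Lims2, a partner of integrin-linked kinase, from 12.7 to 0.890 FPKM. Between the TAM groups Zyx, which encodes zyxin, rose from 164 to 196 FPKM and Vasp, an actin polymerase, from 40.5 to 54.3 FPKM. Nedd9, a docking protein of focal adhesions, fell from 21.5 to 15.5 FPKM and Actn4, an actin crosslinker, from 89.8 to 73.1 FPKM.

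Of 15 podosome genes listed and 13 tested, 7 rose, 5 fell and 1 was not called in control TAM (median 0.09), and 3 rose, 1 fell and 9 were not called between the TAM groups (median 0.05), beside the same shares over all genes. Cttn, which encodes cortactin, rose from 2.86 to 11.2 FPKM (1.66, adjusted p = 2.34e-11, limma). Was, which encodes the actin nucleation factor WASP, had 13.2, 10.5 and 16.4 FPKM. Its rise between the TAM groups was 0.60 (adjusted p = 1.43e-06, limma), and its fall in control TAM (-0.31, adjusted p = 9.77e-05, limma) was lost after rescaling (adjusted p = 0.0746). Arpc2, a subunit of the Arp2/3 complex, had 582, 809 and 882 FPKM, and its second rise was lost after rescaling (adjusted p = 0.215) and quantile normalization (adjusted p = 0.122). Myo1f, a myosin of leukocytes, fell between the TAM groups from 190.4 to 159 FPKM. Lcp1, which encodes the actin bundler L-plastin, went from 444 to 390 FPKM in control TAM (-0.19, adjusted p = 3.48e-06, limma), and stood at 0.03 after rescaling.

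For each subunit the gene with the most similar pair of differences was sought among 5635 genes with a mean of at least 10 FPKM in their highest group. The measure was Euclidean distance over the difference between control TAM and resident macrophages and that between the TAM groups. The nearest genes were Utp6 for Itga4 (distance 0.00869), Txnrd1 for Itga5 (0.00729), Tpi1 for Itga6 (0.0900) and Hdlbp for Itgal (0.0371). For Itgam it was Sfxn1 (0.0402), for Itgav Svbp (0.0222) and for Itgb1 Coa5 (0.0220). Ikbke lay nearest to Itgb2 (0.0165), Mgea5 to Itgb5 (0.0419) and Pgk1 to Itgb7 (0.0506). The search held few integrin subunits among its 5635 genes, since Itga4, Itgav and most subunit genes outside the 10 lay under that level. That no subunit was a nearest gene therefore tests nothing about the family.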

How the data were processed

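RNA-seq of 10 libraries of sorted mouse macrophages was deposited by the authors as 1 table of FPKM. Per the labels' protocols, RNA was taken with either of 2 kits, amplified with SMART-Seq v4 and made into Nextera XT libraries, which keep no strand. The submitters' processing notes name STAR, edgeR and the builds mm10 and GRCm38 with no role, and gene lengths and scaling were not given in the sources used here. Low values gave recovered reads, with 85.8% to 87.07% whole within 0.05 in the range of 1 to 200 reads. For the 12 same-group pairs, the ratio of the median squared gap between libraries to counting noise ran from 1.803 to 3.336. No library was therefore treated as a copy of another. Such a ratio cannot show that libraries came from separate mice, since repeat libraries of the same RNA can also exceed counting noise.

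The 11127 genes that reached an FPKM of 1 in 3 or more libraries were fitted with limma 3.58.1 in R 4.3.3 on log2(FPKM + 1), with 3 group means over 10 libraries, a variance trend and 7 residual degrees of freedom. P-values were adjusted by Benjamini-Hochberg over all genes tested, at 0.05. The fit was checked on simulated data in which few genes changed, unlike here, so that check says little about error rates in these comparisons. Subunit and pathway lists were chosen with earlier results of these data known, and are described by counts and medians. Named were all 10 subunits, the other subunit genes, Ahr and Lyz2, the nearest gene of each subunit, the 2 most abundant genes of each cell type list and, per pathway list, comparison and direction, the 2 called genes with the smallest adjusted p and a mean of at least 10 FPKM in the higher group. Alternatives changed the pseudocount, filter, scaling, fit, replicate block and test, and left out each library in turn. Symbols were matched by identifier, and coordinates are from GENCODE M21 (GRCm38), 1-based.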

Additional observations from a re-analysis of the deposited data

Results flagged for a closer look

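Among 32 quantities checked in the resident group, the only group of more than 3 libraries, 2 had a library far from the rest of its group, and chance flags about 1 in 20 groups. Itga2b, the platelet alpha chain, was at 1.40 FPKM in resident replicate 2, with the others at 2.36 to 2.50 FPKM. Itgax, which encodes CD11c, was at 0.592 FPKM in resident replicate 4, with the others at 0.976 to 1.00 FPKM. Neither gene is 1 of the 10 subunits described above.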

How the results depend on the processing

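Of 220 values per comparison (10 subunits under 22 alternatives, 10 of them leaving out a library), all kept their direction and call between control TAM and resident macrophages and their call between the TAM groups, and 215 kept theirs between cKO-labelled TAM and resident macrophages. The 5 others are all Itgal, which passed the threshold after rescaling (0.25), with the replicate block (0.16, adjusted p = 0.02, limma), with limma-voom (0.22, adjusted p = 0.000586) and without resident replicate 4 or cKO-labelled replicate 3. Leaving out a library gave 10 and 8 subunits in the first 2 comparisons and 8 to 9 in the last, with 8185 to 8521, 3445 to 4618 and 8120 to 8605 of all genes called. The direction turned for Lcp1 between control TAM and resident macrophages after rescaling (0.0256) and for Lyz2 after quantile normalization (0.0659). The cause was not tested. Rescaling lowered the genes called higher between the TAM groups from 2283 to 1501, and the log2 ratios of Itga6 to Itga5 and of Itgav to Itgb5 in the first comparison moved from 1.73 to 1.60 and from 1.23 to 0.93 with 1 added to each FPKM.

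Replicate numbers did not pair the libraries: deviations of same-numbered libraries correlated at -0.061 to 0.111 (9 pairs) and of others at -0.152 to 0.128 (24 pairs). With the replicate block 10, 8 and 9 subunits and 8396, 4342 and 8437 of all genes were called in the 3 comparisons, and Itga2b passed between the TAM groups (0.42, adjusted p = 0.00761, limma). Depth limits Itgav most, with 152 reads in its lowest library. The limits are few libraries, and marker genes of other cells that moved with the groups. Genotype and tissue also differ together, as do Lys M and any Ahr deletion.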
